A study of Mus musculus with 8 samples.

Results

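Nuclei of CAST/EiJ mice were compared with those of 7 other inbred strains in the main cell types of the striatum. The authors' table assigns each nucleus to a strain from its RNA reads, and all annotated nuclei given as CAST_EiJ there were taken, 5994 of 55672 (10.8%). The strain call made from the open-chromatin reads was the same for all 55672. Barcodes without annotation were not compared, so whether agreement was a condition of annotation was not tested. The CAST/EiJ nuclei came from 4 mice, 1 in each of 4 batches, which gave 1906, 1780, 944 and 1364 nuclei in batches 1 to 4. The other strains were the wild-derived PWK/PhJ and WSB/EiJ and the laboratory strains 129S1/SvImJ, A/J, C57BL/6, NZO/HlLtJ and NOD/ShiLtJ, also with 4 mice each, 28 in all. The labels state no treatment or engineered allele for any group. Mice were 12 weeks old, each batch pooled nuclei of 1 mouse per strain from frozen striatum, and each batch had 4 males and 4 females. The sex of each CAST/EiJ mouse was not analysed here. The labels call 1 strain C57BL/6J and the table C57BL_6NJ, so it is named C57BL/6 throughout. RNA was read together with open chromatin from single nuclei (10x Multiome). The question of the design is how gene expression in striatal cells varies with genetic background.

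The laboratory strains derive mostly from Mus musculus domesticus. CAST/EiJ was bred from wild Mus musculus castaneus, PWK/PhJ from wild Mus musculus musculus and WSB/EiJ from wild domesticus mice, so CAST/EiJ carries many sequence differences from the reference genome, which is that of C57BL/6J. Most striatal neurons are GABAergic projection neurons of 2 classes. Drd1+ neurons express the dopamine receptor that stimulates cAMP synthesis and project mainly to the substantia nigra and internal pallidum, and Drd2+ neurons express the receptor that inhibits it and project mainly to the external pallidum. Oligodendrocytes make myelin, astrocytes clear transmitters and buffer potassium, and brain macrophages, mostly microglia, survey the tissue. Nuclear RNA is rich in unspliced transcripts, which cover introns as well as exons.

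The 5 clusters analysed, named by the authors Drd1+ neuron, Drd2+ neuron, oligodendrocyte, astrocyte and macrophage, held 5054 (84.3%) of the CAST/EiJ nuclei. Nuclei of 1 mouse in 1 cluster were summed to 1 library, since they share their source. CAST/EiJ libraries held 1841621 to 3934170 counts (unique molecular identifiers, UMIs) in Drd1+ neurons, 1251786 to 2787887 in Drd2+ neurons and 193263 to 618027 in oligodendrocytes. In astrocytes they held 542420, 388733, 38252 and 330079 counts in batches 1 to 4, and in macrophages 103672, 80559, 27325 and 95329. The mouse of batch 3, with 23 astrocytes and 24 macrophages, was below all 28 other mice in both of these totals. The summed level of the 6 marker genes of each cluster in CAST/EiJ mice lay within the range of the other mice in all 5 clusters, and no such marker was at 0. A marker sum of another cell type stood out in CAST/EiJ macrophages, mainly through the single gene Pecam1. The 5 endothelial markers there summed to 231 to 512 CPM (median 352), against 39.8 to 277 CPM (median 73.2) in the other mice. Marker levels are CPM (counts per 1000000) of the plain library total, and other CPM are TMM-scaled. Of the endothelial markers, Pecam1 held most (315 ± 134 against 55.0 ± 68.1 CPM, n = 4 and 28), 3 were between 3.10 and 27.6 CPM, and Mecom was at 0. In CAST/EiJ Drd1+ neurons the 5 perivascular macrophage markers summed to 16.4 to 25.0 CPM, against 3.87 to 17.9 CPM in the others, with Cd163 at 19.7 ± 3.74 against 9.35 ± 3.74 CPM and Cbr2 at 0. Cd163 held most of that sum, with Mrc1 at 0.545 against 0.499 CPM and F13a1 at 0.834 against 0.417 CPM. In Drd2+ neurons the 5 markers summed to 17.6 to 29.1 against 5.20 to 23.3 CPM. The 5 markers of eccentric projection neurons summed to 39.0 to 51.1 CPM (median 42.9) in CAST/EiJ Drd2+ neurons against 10.0 to 39.8 CPM (median 20.0), with Otof at 20.0 ± 4.09 against 5.75 ± 4.05 CPM, and to 29.0 to 47.5 against 10.1 to 56.7 CPM in Drd1+ neurons. Mural cell markers in CAST/EiJ astrocytes summed to 52.3 to 197 CPM (median 172) against 169 to 392 CPM (median 259). Macrophage markers there summed to 168 to 340 CPM (median 182) against 100 to 220 CPM (median 144). The part of RNA of these cell types, endothelium included, in the results was not tested. Barcode sequences that occurred in more than 1 batch numbered 21 of 5973 in CAST/EiJ nuclei and 1517 of 54141 in all nuclei, and the batch kept them apart.

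Expression differed widely between CAST/EiJ and the mean of the other strains, in both directions. In Drd1+ neurons 4403 of 13431 tested genes (32.8%) were called at an adjusted p under 0.05 (edgeR quasi-likelihood test with batch as a term), 2263 higher (16.8%) and 2140 lower (15.9%) in CAST/EiJ. Drd2+ neurons had 3602 of 12799 genes (28.1%), 1896 higher (14.8%) and 1706 lower (13.3%). Oligodendrocytes had 1546 of 9082 genes (17.0%), 858 higher (9.45%) and 688 lower (7.58%). In astrocytes 390 genes were higher (4.75%) and 401 lower (4.89%), 791 of 8207 (9.64%), and in macrophages 197 were higher (5.11%) and 174 lower (4.51%), 371 of 3858 (9.62%). The clusters differ in depth, so these counts do not rank the cell types. The median absolute log2 fold change of called genes was 0.52 and 0.54 in Drd1+ and Drd2+ neurons, 0.74 in oligodendrocytes, 0.83 in astrocytes and 1.08 in macrophages. At lower depth a change must be larger to be called, so these medians do not rank the cell types either. Whether called or not, all 4 CAST/EiJ mice lay above all 28 others for 302 genes in the Drd1+ class (2.25%), 208 in the Drd2+ class (1.63%), 124 in oligodendrocytes (1.37%), 23 in astrocytes (0.280%) and 21 in macrophages (0.544%). All 4 lay below the others for 190 (1.41%), 145 (1.13%), 64 (0.705%), 31 (0.378%) and 26 genes (0.674%). The astrocyte count moved most with single batches, to 391 calls without batch 1 and 858 without batch 3. With only the CAST/EiJ mouse of batch 3 left out it was 800. Astrocyte calls were also fewer without batch 2 (442) or batch 4 (518), as were macrophage calls without batch 1 (247).

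**Figure D1:**
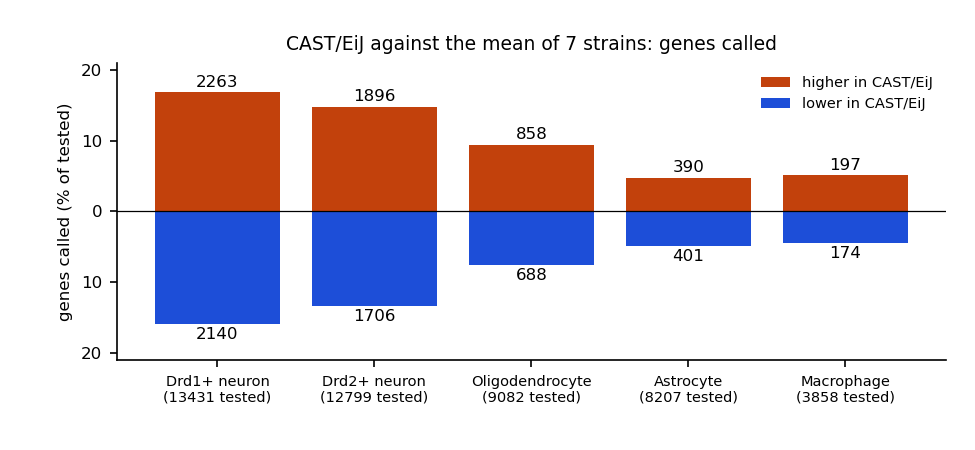
Bars give the percent of tested genes called higher (upward) or lower (downward) in CAST/EiJ than in the mean of the other 7 strains in each cluster, with the number of genes printed at each bar (edgeR, adjusted p under 0.05, 4 against 28 mice). Drd1+ neurons had 2263 higher and 2140 lower genes and macrophages 197 and 174.

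CAST/EiJ was set against each strain alone in the same fits, and these contrasts share the CAST/EiJ mice. In Drd1+ neurons the number of called genes ran from 3673 against PWK/PhJ (27.3%) to 4174 against A/J (31.1%). In Drd2+ neurons the range was 2983 against PWK/PhJ (23.3%) to 3447 against A/J (26.9%), and in oligodendrocytes 1208 against PWK/PhJ (13.3%) to 1507 against NOD/ShiLtJ (16.6%). In astrocytes the fewest were against WSB/EiJ (503, 6.13%) and the most against A/J (647, 7.88%), and macrophages had 293 against WSB/EiJ (7.59%) and 427 against A/J (11.1%). The median over the 7 strains was 614 in astrocytes, and 331, 375 and 383 without batches 1, 2 and 4. The strains differ in depth, with A/J the deepest of the other strains in all 5 clusters (mean of 5125834 counts per Drd1+ neuron library, against 3306112 over the 28 mice) and PWK/PhJ the shallowest in Drd2+ neurons, oligodendrocytes and astrocytes, so these counts do not rank the strains. With libraries thinned to 1 total the medians over the strains were 529, 49 and 87 in oligodendrocytes, astrocytes and macrophages, against 1364, 614 and 338.

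The genes described next include 4 whose CAST/EiJ difference was among the largest and whose RefSeq start region overlapped 1 of the 291715 accessible regions that the authors called over all batches together, as 53.1% of the 32851 start regions in the RefSeq table did. Their start regions (250 bases before to 50 after the start, GRCm38.p6, written on the gene's strand) are printed so that the results can be placed in the genome. The table's starts lie inside the outermost start of the gene model, by 40 bases for Rubcnl, 241 for Fcrls, 249 for Lama2 and 441310 for Cntn4, so most of the Fcrls and Lama2 windows and all of that of Cntn4 lie within the gene model. The windows carry the reference letters, not those of CAST/EiJ. Capitals mark 3 motifs, each searched on both strands. TATAAA is the core promoter element that binds the TATA-binding protein. CCAAT is the site of the general factor NF-Y and reads ATTGG on the other strand. GAGGAA is the core of sites of the macrophage factor PU.1. Of all start regions 13.6% hold the TATAAA motif, 37.4% hold that of NF-Y and 28.3% that of PU.1, and a match is a description only. The Rubcnl region is chr14:75015777-75016076 on the plus strand with CCAAT on each strand, that of Cntn4 chr6:106118692-106118991 on the plus strand (the downstream of 2 starts in the table) with 1 CCAAT. The Fcrls region is chr3:87263475-87263774 on the minus strand with TATAAA and GAGGAA, and with CCAAT on the other strand, and that of Lama2 is chr10:27616893-27617192 on the minus strand with 1 GAGGAA.
Rubcnl: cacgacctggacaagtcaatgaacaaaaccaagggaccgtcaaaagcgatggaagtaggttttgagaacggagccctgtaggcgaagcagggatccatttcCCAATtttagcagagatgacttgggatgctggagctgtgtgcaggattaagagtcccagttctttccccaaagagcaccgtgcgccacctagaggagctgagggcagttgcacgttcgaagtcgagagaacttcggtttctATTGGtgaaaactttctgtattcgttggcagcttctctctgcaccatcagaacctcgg
Cntn4: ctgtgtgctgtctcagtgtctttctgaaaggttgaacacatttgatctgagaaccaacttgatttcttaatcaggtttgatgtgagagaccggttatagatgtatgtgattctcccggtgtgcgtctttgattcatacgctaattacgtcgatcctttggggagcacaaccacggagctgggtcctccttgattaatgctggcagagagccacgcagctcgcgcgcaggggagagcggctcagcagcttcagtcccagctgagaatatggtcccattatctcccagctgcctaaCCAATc
Fcrls: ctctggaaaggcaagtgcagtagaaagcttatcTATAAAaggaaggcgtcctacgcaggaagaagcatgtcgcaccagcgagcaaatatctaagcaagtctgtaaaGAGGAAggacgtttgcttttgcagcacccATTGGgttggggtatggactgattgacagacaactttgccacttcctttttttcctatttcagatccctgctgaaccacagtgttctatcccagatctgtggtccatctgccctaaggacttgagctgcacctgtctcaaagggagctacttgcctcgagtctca
Lama2: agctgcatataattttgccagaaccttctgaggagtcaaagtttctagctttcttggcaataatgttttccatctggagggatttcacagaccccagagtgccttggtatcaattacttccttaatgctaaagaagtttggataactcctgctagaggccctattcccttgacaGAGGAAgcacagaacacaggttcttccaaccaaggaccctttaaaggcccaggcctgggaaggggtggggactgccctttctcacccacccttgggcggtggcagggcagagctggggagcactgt

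Few genes were called in every cell type. Of 3235 genes tested in all 5 clusters, 13 were called in all 5 and 11 of them in 1 direction (0.340%), 7 higher and 4 lower. The other 2, named after their values were seen, changed sign between clusters: Cacna1d, a voltage-gated calcium channel subunit, was higher in CAST/EiJ oligodendrocytes and macrophages (0.93 and 0.47 on the log2 scale) and lower in the other 3, and Fhit was higher only in macrophages (0.40). Dnajb6, a co-chaperone that limits protein aggregation, rose in all 5. In Drd1+ neurons it stood at 165, 159, 152 and 153 CPM in the CAST/EiJ mice of batches 1 to 4, and at 54.6 to 78.8 CPM (median 63.4) in the others. No other mouse reached the lowest CAST/EiJ value, and the log2 fold change was 1.29 (SE 0.05), with an adjusted p of 9.88e-24 in edgeR. Each SE given with a log2 value is its absolute size over the square root of the test's F. It does not measure the spread between the CAST/EiJ mice, nor the counting error of a group with few counts. The log2 fold changes of Dnajb6 in the other 4 clusters ran from 0.87 to 1.37. The gene model B530045E10Rik reached 595, 546, 2090.3 and 1567 CPM in CAST/EiJ oligodendrocytes against 0 to 6.87 CPM (median 2.27), a log2 fold change of 8.82 (SE 0.15). It was called in all 5 clusters (6.98 to 8.82 on the log2 scale), always without overlap, as the rule for leading genes required. The mice of batches 3 and 4 were above those of batches 1 and 2 in the neurons, oligodendrocytes and astrocytes.

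Fkbp5 encodes a co-chaperone of the glucocorticoid receptor and is itself induced by glucocorticoids. It was higher in CAST/EiJ in all 5 clusters, by 0.52 and 0.49 on the log2 scale in Drd1+ and Drd2+ neurons, 1.57 in oligodendrocytes, 2.78 in astrocytes and 1.52 in macrophages. Astrocytes of the CAST/EiJ mice held 126, 133, 71.0 and 35.2 CPM of Fkbp5, the others 0 to 206 CPM (median 10.7). The ranges overlapped: batches 1 and 2 were the higher CAST/EiJ mice and batches 3 and 4 the lower, and the next highest strain was WSB/EiJ, mean 81.5 CPM. In oligodendrocytes WSB/EiJ and 129S1/SvImJ had higher means than CAST/EiJ (201 and 113 against 107 CPM), and in macrophages WSB/EiJ did (935 against 782 CPM). Btbd9 (an adaptor for ubiquitin ligases), Cradd (a death-domain adaptor), Sfi1 (a centriole protein) and the model AC149090.1 were also higher in all 5. Sfi1 overlaps 6 other gene models in RefSeq, so its counts are uncertain. The genes lower in all 5 clusters were Il18, Firre, 4833420G17Rik and Clasp2. Il18, an interleukin of the inflammasome pathway, was at 124, 116, 118 and 121 CPM in CAST/EiJ astrocytes and 194 to 480.4 CPM (median 298) in the others. The CAST/EiJ mice were thus all below the others, with a log2 fold change of -1.27 (SE 0.14). Its log2 fold change was -0.96 and -1.09 in Drd1+ and Drd2+ neurons, -1.40 in oligodendrocytes and -1.17 in macrophages. Il18 overlaps Bco2 and Tex12, and the strand used in counting is not given in the sources used here. Firre, an X-linked lncRNA, fell in all 5 clusters, and in Drd1+ neurons PWK/PhJ was lower still (mean 27.1 CPM against 39.7 CPM in CAST/EiJ).

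Rubcnl encodes an autophagy enhancer related to Rubicon, and its cell type pattern differed in CAST/EiJ. In the other strains it was found mainly in macrophages, at 66.5 to 283 CPM (median 155), and was near 0 elsewhere. Drd1+ neurons of the other mice held 0 to 1.14 CPM (median 0), and those of CAST/EiJ 15.6, 11, 20.0 and 24.9 CPM. CAST/EiJ oligodendrocytes held 128, 165, 312 and 175 CPM against 0 to 6.08 CPM (median 0), and CAST/EiJ astrocytes 126, 94.1, 166 and 134 CPM against 0 to 7.39 CPM (median 0). In each of these clusters all 4 CAST/EiJ mice were above all others, as the rule that picked leading genes required. The log2 fold changes were 6.43 (SE 0.29) and 7.13 (SE 0.33) in Drd1+ and Drd2+ neurons, 7.86 (SE 0.23) in oligodendrocytes and 7.24 (SE 0.38) in astrocytes. In macrophages the CAST/EiJ mice held 119, 0, 124 and 117 CPM, which was not called (log2 fold change -0.80, adjusted p = 0.11 in edgeR). The gap between macrophages and Drd1+ neurons in the size of the CAST/EiJ effect was -7.17 (SE 0.42) on the log2 scale, past the threshold in the interaction test.

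**Figure D2:**
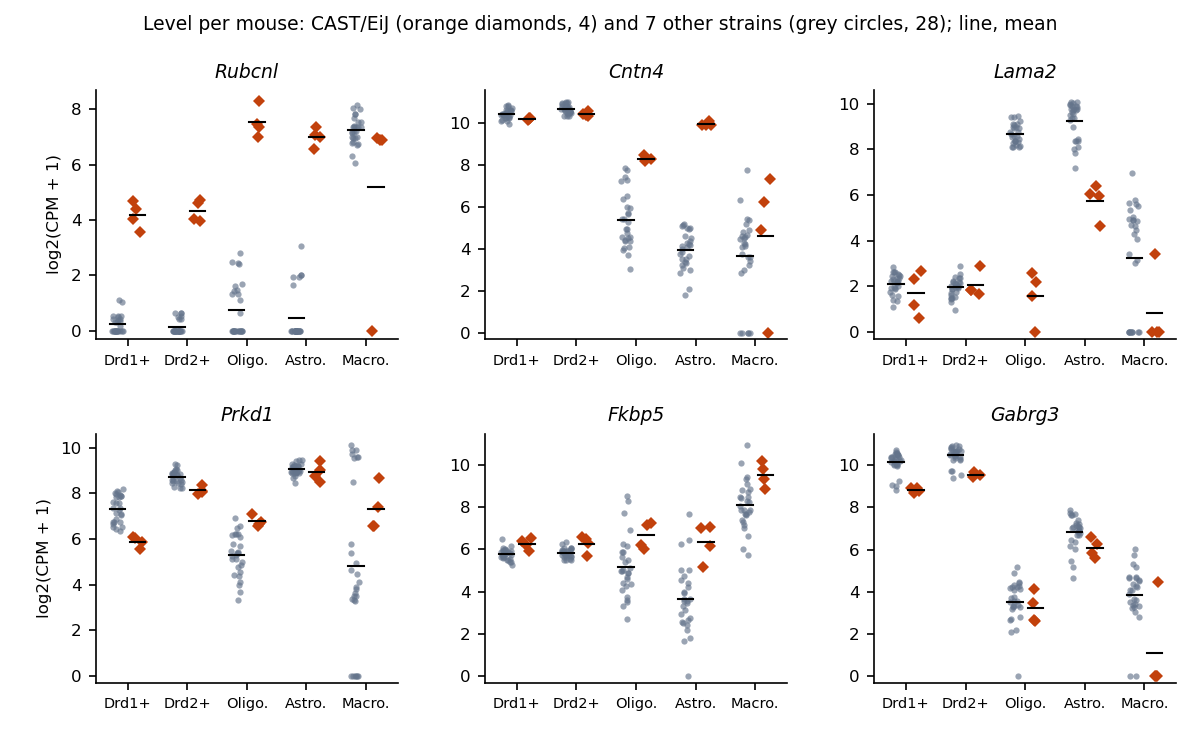
Each point is 1 mouse, on a scale of log2(CPM + 1), for 6 genes in the 5 clusters, with CAST/EiJ as orange diamonds (n = 4), the other strains as grey circles (n = 28) and a line at each group's mean. Rubcnl was raised in 4 clusters and not in macrophages, Cntn4 was raised in astrocytes and oligodendrocytes but not in neurons, and Lama2 was low in oligodendrocytes and astrocytes.

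Genes that the other strains hardly expressed led the higher side in neurons. Sult3a1, a sulfotransferase (chr10:33851020-33879475), stood at 35.4, 41.7, 45.9 and 40.8 CPM in CAST/EiJ Drd1+ neurons, and at 0 to 0.559 CPM (median 0) in the others. The groups did not overlap, as the rule for leading genes required. The log2 fold change was 8.87 (SE 0.24) with an adjusted p of 3.02e-26 in edgeR. Sult3a1 belongs to a family with close copies, so the share of reads from a relative is uncertain. Gpr143, the receptor mutated in ocular albinism, reached 18.2, 12.0, 20.5 and 15.5 CPM against 0 to 0.842 CPM (median 0). Catsperb, a subunit of the sperm calcium channel CatSper, reached 39.9, 34.6, 37.8 and 36.8 CPM against 0 to 2.83 CPM (median 0.565). For Gpr143, Catsperb and the membrane protein gene Ssmem1 the CAST/EiJ mice also lay above every other mouse, with log2 fold changes of 7.56, 6.00 and 7.50. Bsph1, a sperm-binding protein gene, rose by 5.73, and its next highest strain was PWK/PhJ, mean 6.71 CPM. The models Gm41561, Gm48324 and A330049N07Rik completed the 10 leading genes (6.73, 5.18 and 4.74); Gm41561 lies in Dnah8. In Drd2+ neurons Sult3a1, Ssmem1, Gpr143, B530045E10Rik, Gm41561 and Rubcnl led, from 8.39 down to 7.13.

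On the lower side in neurons, several genes were close to 0 in CAST/EiJ. Col19a1, a basement membrane collagen chain, was at 2.11, 2.91, 11.9 and 4.08 CPM in CAST/EiJ Drd1+ neurons and at 31.7 to 105 CPM (median 50.8) in the others. All 4 CAST/EiJ mice were below all others, as the rule for leading genes required, and the log2 fold change was -3.62 (SE 0.38). Trat1, an adaptor of the T cell receptor, was at 0.528, 1.29, 1.62 and 1.23 CPM against 5.05 to 32.7 CPM (median 14.5), a log2 fold change of -3.75 (SE 0.29). In Drd2+ neurons the 4 CAST/EiJ mice held 2 Trat1 counts in all, which put the other strains 60.0 times higher (95% counting interval 16.6 to 496). The rest of the lower side in Drd1+ neurons were Gzmk (granzyme K, -3.60), Clic6 (a chloride channel family member, -3.57), Pifo (a primary cilium gene, -3.48), Fbn2 (fibrillin 2, -3.39) and the models Gm26760, 4930417O13Rik, Gm32442 and Gm26901 (-4.07, -4.07, -3.98 and -3.33). PWK/PhJ was the next lowest strain for Trat1, Gzmk, Clic6, Fbn2 and Gm26901. Drd2+ neurons had Gm42722, Clic6, Pifo, 4930417O13Rik and Col19a1 beside Trat1 as their leading lower genes, from -4.39 to -3.58. The reads were aligned to a reference of another strain, and the part of alignment in lower counts was not tested.

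**Figure D3:**
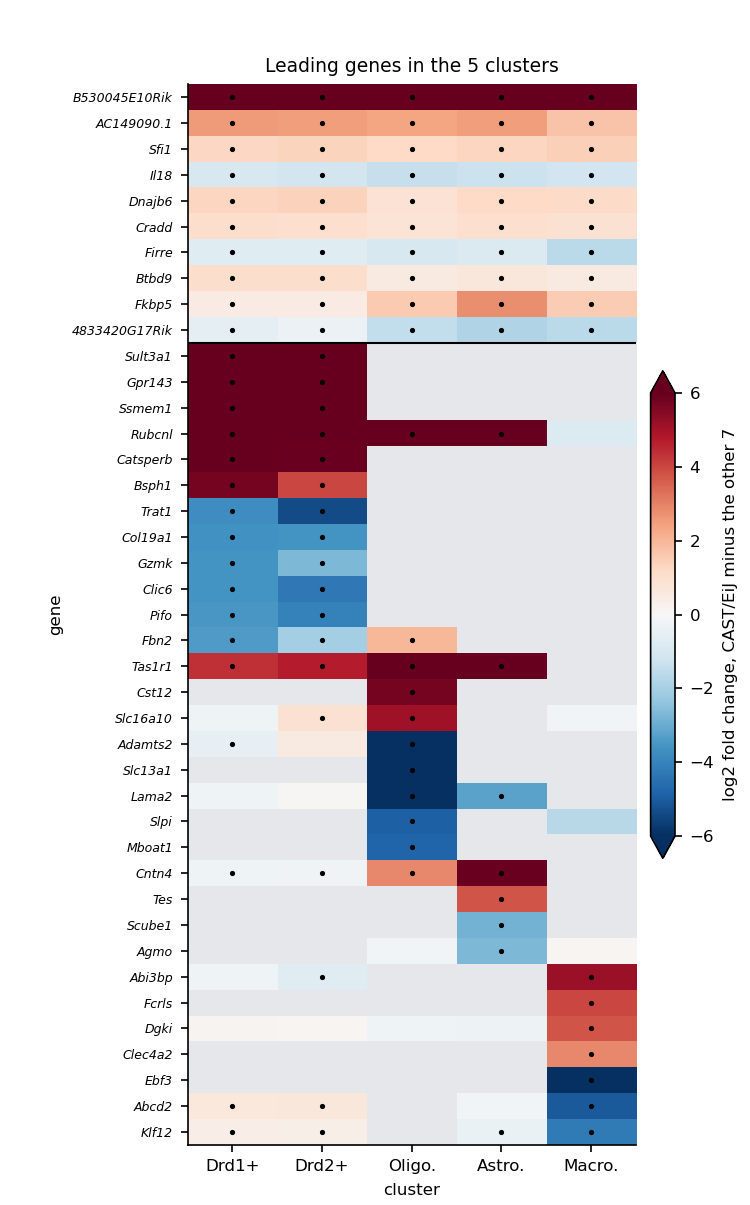
Colour gives the log2 fold change of CAST/EiJ against the mean of the other 7 strains (limited to ±6) for genes called in all 5 clusters, above the line, and for leading genes of each cluster, below it; a dot marks a called gene and grey a gene not tested. Rubcnl is raised in 4 columns, Lama2 is lowered in oligodendrocytes (-6.93) and astrocytes (-3.22), and Fcrls is raised in macrophages (3.99).

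Signalling genes of projection neurons changed in both directions. Of the dopamine and cAMP list, 11 of 41 tested members rose and 3 fell in Drd1+ neurons (34.1%, beside 32.8% of all genes), with a median log2 fold change of 0.06 beside -0.0027 over all genes. In Drd2+ neurons 12 of 42 rose and 6 fell (42.9%, beside 28.1%). Drd1 itself was at 263, 262, 333 and 299.8 CPM in CAST/EiJ Drd1+ neurons and at 166 to 340.3 CPM (median 205) in the others. The ranges overlapped, and Drd1 was called higher with a log2 fold change of 0.43 (SE 0.05). Drd2 in Drd2+ neurons was at 453, 481, 289.8 and 332 CPM against 328 to 531 CPM (median 442). Batches 1 and 2 lay above the median of the others and batches 3 and 4 below it, and Drd2 was called lower by a small amount (log2 fold change -0.17, SE 0.06, adjusted p = 0.032 in edgeR). Beyond the 4 called members with the smallest p of each list and cluster, list members named here were chosen after their values were seen. Among the phosphodiesterases, which break down cyclic nucleotides, Pde1c rose by 1.12 and 0.85 in Drd1+ and Drd2+ neurons, Pde4b by 0.65 and 0.54 and Pde10a by 0.29 and 0.27, whereas Pde2a fell (-0.34 and -0.40). Adcy2, an adenylyl cyclase, rose from 29.3 ± 14.2 to 61.5 ± 13.4 CPM in Drd1+ neurons (SD, n = 28 and 4), and the phosphatase inhibitor Ppp1r1a fell from 73.4 ± 23.8 to 48.7 ± 4.45 CPM.

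Of the potassium channel genes, 19 of 52 tested rose and 10 fell in Drd1+ neurons (55.8%, beside 32.8% of all genes), and 16 of 50 rose and 7 fell in Drd2+ neurons (46.0%, beside 28.1%). Their median log2 fold changes were 0.12 and 0.09. Kcnip2, a subunit that sets the gating of A-type channels, was at 328, 346, 408 and 369.6 CPM in CAST/EiJ Drd1+ neurons against 143 to 287 CPM (median 212). Kcnh7, an ERG-type channel, was at 691, 731, 774 and 661 CPM against 161 to 495 CPM (median 309). For both genes every CAST/EiJ mouse was above every other mouse, and the log2 fold changes were 0.80 (SE 0.05) and 1.27 (SE 0.13). Kcnc2, a fast Kv3 channel, rose from 4.70 ± 2.09 to 16.9 ± 5.71 CPM in Drd1+ neurons and from 4.73 ± 5.18 to 58.1 ± 29.6 CPM in oligodendrocytes (SD, n = 28 and 4). The inward rectifiers Kcnj3 and Kcnj9 fell in Drd1+ neurons (-1.65 and -1.06 on the log2 scale).

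Called GABA receptor genes were mostly lower. In Drd1+ neurons 1 of 14 tested rose and 5 fell (42.9%, beside 32.8% of all genes), in Drd2+ neurons 1 rose and 4 fell (35.7%, beside 28.1%), and in astrocytes 6 of 8 fell and none rose (75.0%, beside 9.64% of all genes), with a median log2 fold change of -0.59 there. Gabrg3 was at 482, 489, 413 and 439 CPM in CAST/EiJ Drd1+ neurons and at 458 to 1669.9 CPM (median 1231) in the others. The ranges overlapped, the next lowest strain was PWK/PhJ, mean 531 CPM, and the log2 fold change was -1.30 (SE 0.05). Gabrd, the subunit of extrasynaptic receptors, fell from 130.4 ± 26.7 to 72.7 ± 14.4 CPM in Drd2+ neurons, where all CAST/EiJ mice were below the others. In astrocytes Gabbr2, a subunit of the GABA-B receptor, and the receptor subunit Gabrb1 fell, by log2 fold changes of -1.69 and -0.57. Neuron marker sums in CAST/EiJ astrocytes lay within the range of the other mice for Drd1+ markers (247 to 293 against 196 to 394 CPM) and Drd2+ markers (206 to 293 against 171 to 388 CPM).

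Glutamate receptor genes were called at about the rate of all genes in neurons, 6 of 22 in Drd1+ neurons (27.3%, beside 32.8%) and 7 of 22 in Drd2+ neurons (31.8%, beside 28.1%). Gria4, an AMPA receptor subunit, rose by 0.31 and 0.42, and the metabotropic receptor Grm8 fell in Drd2+ neurons from 214 ± 95.2 to 56.6 ± 5.66 CPM. In astrocytes 1 of 17 rose and 5 fell (35.3%, beside 9.64%), among the latter Grm3, a metabotropic receptor of astrocytes (-0.59). Of 21 immediate early genes, which report recent activity, Dusp1 alone was called in Drd1+ neurons (log2 fold change 0.57), 4.76% beside 32.8% of all genes. None of the 21 was called in Drd2+ neurons, beside 28.1% of all genes. The circadian list had 6 higher and 2 lower of 26 in Drd1+ neurons (30.8%) and the same numbers of 24 in Drd2+ neurons (33.3%), near the shares of all genes (32.8% and 28.1%). Npas2, a partner of the clock protein BMAL1, rose by 0.44 and 0.47, Fbxl21 by 1.71 and 1.56, and Per3 fell (-0.57 and -0.46). Of the neuropeptides and their receptors, 1 of 19 rose and 2 fell in Drd1+ neurons (15.8%) and 2 of 20 rose and 3 fell in Drd2+ neurons (25.0%), below those shares. Nts, the neurotensin precursor, was at 55.5, 31, 31.8 and 25.4 CPM in CAST/EiJ Drd2+ neurons against 2.27 to 34.3 CPM (median 11.5), a log2 fold change of 1.63 (SE 0.25) with overlap. Oprk1, the kappa opioid receptor, fell (-0.66 and -0.84). Mitochondrially encoded respiratory genes were not called in any cluster, 0 of 13 tested in 4 clusters and 0 of 12 in macrophages. Their transcripts are not nuclear, and the part of RNA shared between the strains of a pool was not tested. The shares over all genes were 32.8% and 28.1% in Drd1+ and Drd2+ neurons, 17.0% in oligodendrocytes, 9.64% in astrocytes and 9.62% in macrophages. With so few members, 0 calls in astrocytes and macrophages are close to those shares.

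Synaptic adhesion genes split evenly in neurons, 14 higher and 16 lower of 63 in Drd1+ neurons (47.6%, beside 32.8% of all genes) and 15 each way of 62 in Drd2+ neurons (48.4%, beside 28.1%). Cntnap5c, a contactin-associated protein gene, was at 495, 383, 448 and 498 CPM in CAST/EiJ Drd1+ neurons against 34.6 to 354 CPM (median 148), without overlap, a log2 fold change of 1.84 (SE 0.08). Flrt2 rose by 0.71, whereas Ncam2 and Lrrtm4 fell (-0.69 and -0.36). In oligodendrocytes 9 of 43 rose and 3 fell (27.9%, beside 17.0%), in astrocytes 3 of 39 rose and 5 fell (20.5%, beside 9.64%), and in macrophages 2 of 16 fell (12.5%, beside 9.62%).

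**Figure D4:**
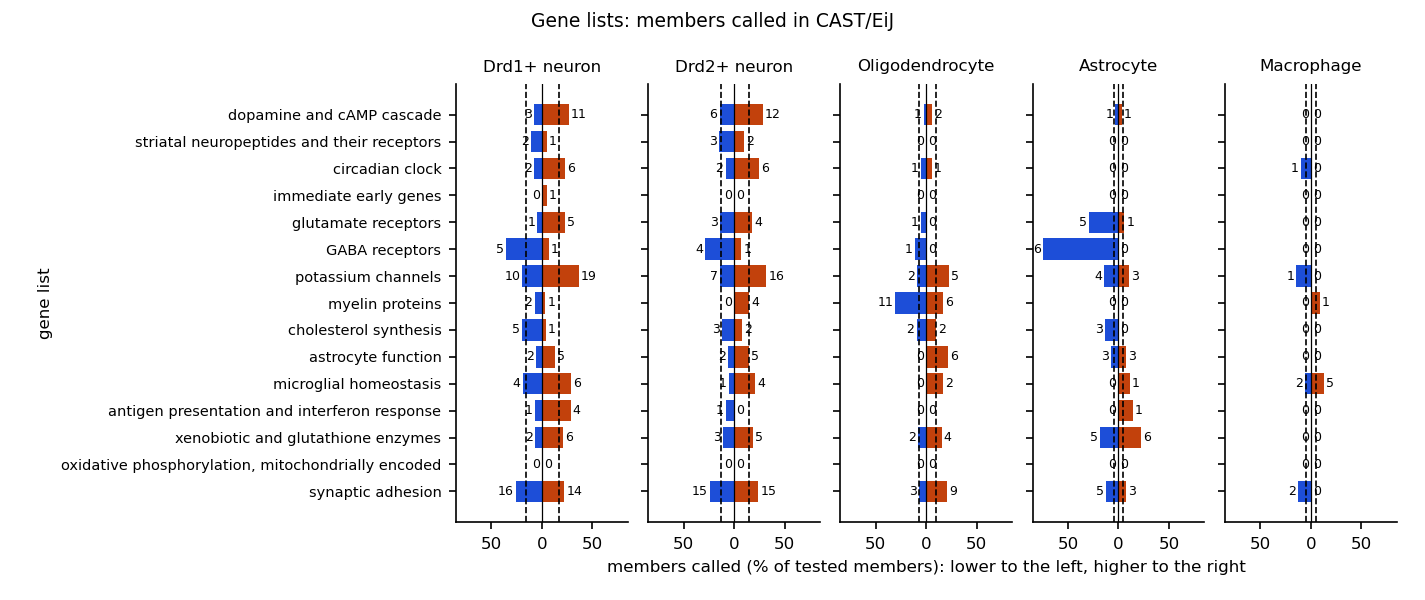
For each gene list and cluster, bars give the percent of tested members called higher (right) or lower (left) in CAST/EiJ, with counts printed, and dashed lines give the same percent over all tested genes of the cluster. Potassium channel genes in Drd1+ neurons (19 higher, 10 lower of 52) and GABA receptor genes in astrocytes (0 higher, 6 lower of 8) are shown beside the dashed lines, at 16.8% and 15.9% and at 4.75% and 4.89%.

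In oligodendrocytes the largest drop among leading genes with more than 3 counts left in CAST/EiJ was in Lama2, the laminin alpha 2 chain of basement membranes. CAST/EiJ mice held 4.98, 1.99, 0 and 3.53 CPM and the other mice 274 to 700.4 CPM (median 397). No value came near between the groups, and the log2 fold change was -6.93 (SE 0.21) with an adjusted p of 9.54e-51 in edgeR. The CAST/EiJ level rests on few counts, and this SE does not cover their counting error. Lama2 was a leading gene here and in astrocytes, so the rule for leading genes required the separation. In astrocytes Lama2 was at 82.6, 60.9, 23.7 and 63.9 CPM against 145 to 1088 CPM (median 765), also without overlap (log2 fold change -3.22, SE 0.16), and PWK/PhJ, mean 238 CPM, came next. In Drd1+ neurons Lama2 was scarce in all strains, with a mean of 2.78 CPM in CAST/EiJ and 2.36 to 4.69 CPM in the others. Adamts2, which trims procollagens, had 0 counts in all 4 CAST/EiJ oligodendrocyte libraries and 6.08 to 162 CPM (median 89.7) in the others. It was therefore at least 56.0-fold lower, taking 3 counts over the 4 mice as the floor. The sulfate transporter gene Slc13a1 was at 0 as well (at least 30.6-fold lower), as was the model Gm42756 (at least 16.5-fold lower). Slpi, a protease inhibitor gene, had 2 counts, and the other strains were 53.3 times higher (95% counting interval 14.7 to 441). Mboat1, a lysophospholipid acyltransferase gene, fell (-4.80).

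Genes raised in CAST/EiJ oligodendrocytes included Slc16a10, an aromatic amino acid transporter, at 39.9, 57.8, 72.8 and 56.5 CPM against 0 to 7.18 CPM (median 1.12), a log2 fold change of 5.08 (SE 0.33) without overlap. Tas1r1, a subunit of the umami receptor, was at 66.5, 41.8, 218 and 184 CPM against 0 to 4.54 CPM (median 1.07). All CAST/EiJ mice were above the others, with batches 3 and 4 highest, and its log2 fold change was 6.44 (SE 0.27). For Slc16a10 and Tas1r1 the rule for leading genes required this separation. Tas1r1 was also called higher in Drd1+ and Drd2+ neurons (4.38 and 4.7 on the log2 scale). The cystatin gene Cst12 and the model Gm40689 also led (5.74 and 6.44). Of the myelin list, 6 of 36 tested members rose and 11 fell (47.2%, beside 17.0% of all genes), with a median log2 fold change of -0.12. Mobp, a myelin basic protein relative, rose from 1712 ± 273 to 2655 ± 249 CPM (SD, n = 28 and 4), as did Tspan2 (0.37) and the precursor factor Olig2 (1.14). Car2, a carbonic anhydrase, fell from 760.2 ± 169.8 to 430.1 ± 58.7 CPM, and so did the tight junction protein gene Cldn11 (-0.56 on the log2 scale), Aspa (-0.52) and the transcription factors Sox10 and Myrf (-0.51 and -0.50). The adhesion gene Cntn1 was at 174, 247, 161 and 207 CPM in CAST/EiJ oligodendrocytes against 23.4 to 94.1 CPM (median 56.0), without overlap (log2 fold change 1.78, SE 0.12).

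Cntn4, a contactin of axons and synapses, separated CAST/EiJ astrocytes from all others. CAST/EiJ mice held 948, 1084, 947 and 943 CPM, and the others 2.42 to 35.3 CPM (median 15.4). The lowest CAST/EiJ mouse was far above the highest of the others, and the log2 fold change was 5.92 (SE 0.12) with an adjusted p of 3.52e-64 in edgeR. In oligodendrocytes Cntn4 was at 314, 347, 286 and 304 CPM against 7.09 to 225 CPM (median 33.7), without overlap, a log2 fold change of 2.89 (SE 0.12). There NZO/HlLtJ came next, mean 191 CPM, and then A/J, mean 94.6 CPM. In neurons, where all strains express it, Cntn4 was slightly lower in CAST/EiJ (-0.24 in Drd1+ and -0.23 in Drd2+ neurons). The focal adhesion gene Tes rose in astrocytes to 49.2, 94.1, 47.3 and 63.9 CPM from 0 to 11.4 CPM (median 5.14), without overlap. Tas1r1 and the model Gm30173 rose too, by 6.30 and 4.16. Agmo, which cleaves ether lipids, was at 41.3, 24.9, 23.7 and 16 CPM against 68.5 to 383 CPM (median 225), with all CAST/EiJ mice below the others (log2 fold change -2.70, SE 0.22). Scube1 and the models 5031439G07Rik and Gm26843 fell (-2.85, -2.19 and -2.18), and Gm13031 had 1 count in CAST/EiJ. The separation of Cntn4, Tes and Agmo in astrocytes was required by the rule for leading genes.

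Of the astrocyte function list, 3 of 39 tested members rose and 3 fell in astrocytes (15.4%, beside 9.64% of all genes). Glul, glutamine synthetase, rose by 0.68 and the glutamate transporter gene Slc1a3 by 0.48, and the GABA transporter gene Slc6a11 fell (-0.58). Pla2g7, a lipoprotein-associated phospholipase, fell from 628 ± 174 to 305 ± 47.4 CPM with all CAST/EiJ mice lowest. The xenobiotic and glutathione list had 6 of 27 higher and 5 lower in astrocytes (40.7%, beside 9.64%), among them Cyp2d22 (1.16), the epoxide hydrolase gene Ephx1 (1.24) and the glutathione synthesis subunit Gclm (-1.26). In Drd1+ neurons 6 of 29 rose and 2 fell (27.6%, beside 32.8%), with Mgst1, a microsomal glutathione transferase, at 15.6, 20.1, 11.3 and 16.7 CPM against 1.70 to 12.6 CPM (median 4.54), with overlap and a log2 fold change of 1.84 (SE 0.16). Cholesterol synthesis genes had median log2 fold changes of -0.24 in Drd1+ neurons (1 of 25 higher, 5 lower, 24.0%, beside 32.8% of all genes), -0.13 in Drd2+ neurons (2 higher, 3 lower of 25, 20.0%, beside 28.1%) and -0.24 in astrocytes (0 higher, 3 lower of 22, 13.6%, beside 9.64%). In oligodendrocytes the median was 0.02, with 2 higher and 2 lower of 21 (19.0%, beside 17.0%). Srebf2, the transcription factor that controls the pathway, fell in all 4 clusters where it was tested: -0.36, -0.34, -0.36 and -0.54 in Drd1+ neurons, Drd2+ neurons, oligodendrocytes and astrocytes.

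In macrophages the receptor gene Fcrls, typical of microglia, had the largest rise among called homeostatic genes. CAST/EiJ mice held 948, 809.9, 990.1 and 870.2 CPM, and the others 0 to 792 CPM (median 55.2). Every CAST/EiJ mouse was above every other, as the rule for leading genes required. C57BL/6 came close (mean 709 CPM) while PWK/PhJ had a mean of 6.54 CPM. The log2 fold change was 3.99 (SE 0.20), with an adjusted p of 1.71e-31 in edgeR. Of 38 tested genes of the microglial homeostasis list, 5 rose and 2 fell (18.4%, beside 9.62% of all genes). The list also holds the perivascular macrophage markers Mrc1, Cd163 and F13a1. The 5 perivascular markers summed to 0 to 376 CPM (median 0) in CAST/EiJ macrophages against 0 to 650 CPM (median 70.9), and their part was not tested. Olfml3 rose by 2.05, Csf1r, the receptor on which microglia depend, by 0.35, and the fractalkine receptor gene Cx3cr1 by 0.31 (adjusted p = 0.0489 in edgeR). For all 3 of these genes the ranges overlapped. WSB/EiJ was the highest of the other strains, with a mean of 746 CPM of Olfml3 against 778 CPM in CAST/EiJ, 1933 against 1900.1 CPM of Csf1r and 1898 against 1918 CPM of Cx3cr1. Hpgds, a prostaglandin D synthase, was at 154, 218, 330.0 and 299 CPM against 551 to 1147 CPM (median 775), with all CAST/EiJ mice lowest (log2 fold change -1.70, SE 0.17), and the myeloid factor Spi1 fell (-0.72).

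The lectin receptor gene Clec4a2 was at 545, 483, 371 and 455 CPM in CAST/EiJ macrophages against 20.5 to 192 CPM (median 66.9), and the matrix protein gene Abi3bp at 344, 234, 371 and 286 CPM against 0 to 154 CPM (median 0). The lipid kinase gene Dgki was at 723, 825, 536 and 857 CPM against 0 to 252 CPM (median 52.3). For these 3 genes the groups did not overlap, as the rule for leading genes required, and the log2 fold changes were 2.88, 5.18 and 3.77. Klf12, a transcriptional repressor, was at 47.4, 31.1, 0 and 13 CPM against 63.4 to 999.8 CPM (median 617). It was below all others, as that rule required (log2 fold change -4.23, SE 0.32). The transcription factor gene Ebf3 (at least 9.24-fold lower) and the models Gm5086 (at least 27.0-fold) and Gm46224 (at least 6.24-fold) had 0 counts in CAST/EiJ macrophages. The peroxisomal transporter gene Abcd2 had 1 count, and the other strains were 44.3 times higher (95% counting interval 7.93 to 1755). Gm10790 also had 1 count. The adhesion receptor gene Adgrl2 fell from 312 ± 178 to 14 ± 12.9 CPM, without overlap.

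A call in 1 cluster only does not show that the effect differs, so the CAST/EiJ effect in each cluster was set against that in Drd1+ neurons in 1 model with the mouse as a block. Between Drd2+ and Drd1+ neurons 157 of 13791 genes differed (1.14%), 82 toward a larger and 75 toward a smaller log2 fold change in Drd2+ neurons. Against Drd1+ neurons, 1245 of 13943 genes differed in oligodendrocytes (8.93%), 699 of 14301 in astrocytes (4.89%) and 408 of 14489 in macrophages (2.82%). These counts fell to 92 without batch 2 and 103 without batch 4 for Drd2+ neurons, to 417 without batch 1 and 425 without batch 2 for astrocytes, and to 203, 247 and 245 without batches 1, 2 and 4 for macrophages. Between the neuron classes the named differences were modest. Prkd1, protein kinase D1, stood at 46.5 to 66.5 CPM in CAST/EiJ Drd1+ neurons against 80.4 to 291 CPM in the others, all below, and at 252 to 332 CPM against 299 to 627 CPM in Drd2+ neurons, with overlap. Its effect was thus less negative in Drd2+ neurons, by 0.82 (SE 0.07). The difference was 1.10 (SE 0.11) for Tll1, a tolloid protease, 0.73 (SE 0.06) for the actin regulator Wipf3, 0.39 (SE 0.04) for Gabrg3 and -0.46 (SE 0.05) for the teneurin Tenm3.

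Glia differed from neurons by far larger amounts for some genes. The Cntn4 effect exceeded that in Drd1+ neurons by 6.14 (SE 0.17) in astrocytes and 3.12 (SE 0.13) in oligodendrocytes. Adgrv1, a giant adhesion receptor, stood at 40.5 to 61.6 against 0.663 to 8.61 CPM (median 2.11) in Drd1+ neurons, CAST/EiJ first. In astrocytes it was at 27.5 to 71.0 CPM in CAST/EiJ and 8.91 to 169.8 CPM (median 57.3) in the others. The difference between these effects was -4.71 (SE 0.27), and in oligodendrocytes it was -3.42 (SE 0.20). Adgrv1 was called higher in CAST/EiJ oligodendrocytes too (1.01 on the log2 scale), by less than in Drd1+ neurons (4.45). In oligodendrocytes Prkd1, low in CAST/EiJ Drd1+ neurons, was at 93.6 to 135 CPM in CAST/EiJ and 9.11 to 119 CPM (median 39.4) in the others, a difference of 2.90 (SE 0.17) between the effects. Spock1, a proteoglycan gene, was at 4.98 to 14.1 CPM in CAST/EiJ and 5.45 to 2771 CPM (median 556) in the others there, with overlap, and its effect differed by -5.09 (SE 0.23). Myo3a, a myosin gene, was at 538 to 664 CPM in CAST/EiJ and 10.9 to 234 CPM (median 43.8) in the others, without overlap, and its effect differed by 3.08 (SE 0.15). Synpo2, an actin-binding protein gene, stood in Drd1+ neurons at 4.08 to 10.6 against 24.9 to 116 CPM (median 54.6), CAST/EiJ first. In astrocytes it was at 0 to 199 CPM in CAST/EiJ and 10.6 to 96.9 CPM (median 45.7) in the others, a difference of 4.33 (SE 0.32) between the effects. Plce1, a phospholipase C gene, and Rit2, a small GTPase gene, differed by 3.60 (SE 0.27) and 3.05 (SE 0.25) in astrocytes. Plce1 fell in Drd1+ neurons (-3.10) and was not called in astrocytes (0.45, adjusted p = 0.255 in edgeR). Rit2 rose in astrocytes (2.77) and was slightly lower in Drd1+ neurons (-0.25). In macrophages the differences were 5.64 (SE 0.41) for Abi3bp, 3.55 (SE 0.23) for Dgki, 2.92 (SE 0.21) for Nhs and -4.77 (SE 0.36) for Klf12. Of 185 genes named by rule, 180 were matched to RefSeq GRCm38.p6 and 101 of these overlap another annotated gene there, so that part of their counts may belong to the neighbour.

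Macrophages were a smaller share of the annotated nuclei of CAST/EiJ mice. They were 2.99, 2.87, 2.54 and 4.03% of the nuclei of the CAST/EiJ mice of batches 1 to 4, and 2.97 to 7.15% (median 5.02%) of those of the others. The CAST/EiJ mouse was the lowest of its pool in batches 1 to 3, and NZO/HlLtJ and WSB/EiJ were lower in batch 4, so the ranges overlapped. The mean log2 share differed by -0.66 (exact two-sided permutation test within batch, p = 0.000977, adjusted p = 0.00488 over the 5 clusters, n = 4 and 28). The test treats the mice of a batch as exchangeable whatever their strain. Mean shares of the other strains ran from 3.79% (NZO/HlLtJ) to 5.83% (PWK/PhJ), so the p does not measure how unusual CAST/EiJ is among strains. As a share of non-neuronal nuclei alone, the difference was -0.40 and was not called (exact permutation test, adjusted p = 0.107). Drd1+ neurons made up 30.6% ± 5.28 of CAST/EiJ nuclei (SD, n = 4, with an exact permutation test's adjusted p = 0.304), against 27.4% in the others. Oligodendrocytes were 17.8% ± 3.43 against 22% (exact permutation test, n = 4 and 28, adjusted p = 0.300), and Drd2+ neurons 24.3% ± 3.61 against 23.8% (exact permutation test, adjusted p = 0.750). Astrocytes were 13.1, 10.0, 2.44 and 9.90%, with batch 3 below every other mouse (exact permutation test, adjusted p = 0.750). Median UMIs per nucleus were not called in any cluster, with differences of -0.12 on the log2 scale in Drd2+ neurons and -0.15 in astrocytes (exact permutation tests, adjusted p = 0.0836 each). Detected genes per nucleus were lower in CAST/EiJ Drd1+ neurons, Drd2+ neurons and astrocytes, with log2 differences of -0.07, -0.08 and -0.13 (exact permutation tests, adjusted p = 0.0224, 0.0183 and 0.0224). PWK/PhJ was close to CAST/EiJ in neurons. Its mice had a mean of 2540 genes against 2524 in Drd1+ neurons and 2321 against 2319 in Drd2+ neurons. In astrocytes A/J was the next lowest strain, with 1220 against 1186 genes.

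**Figure D5:**
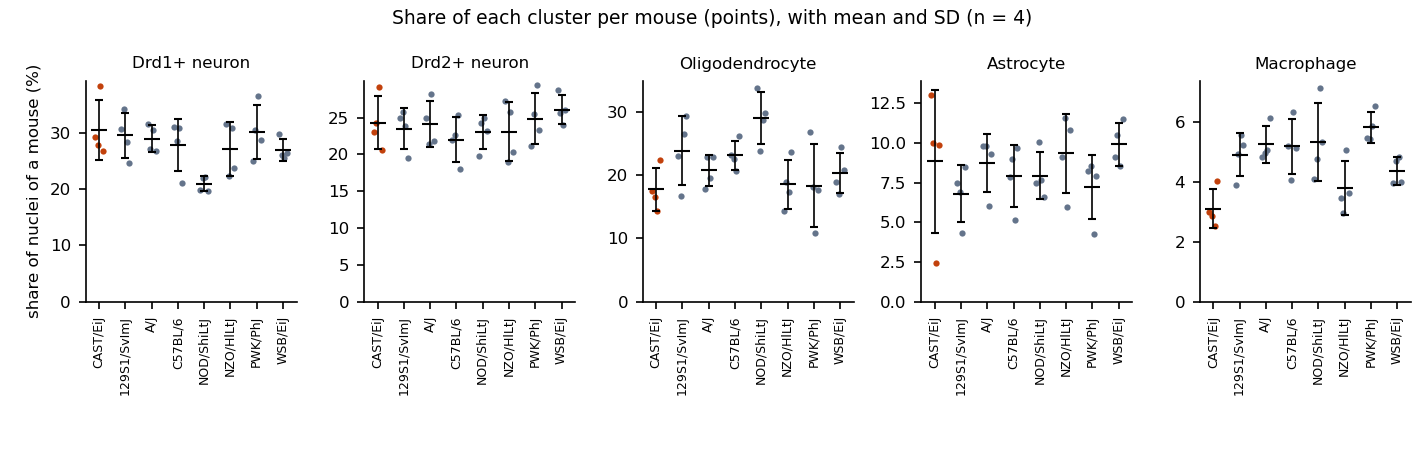
Each point is the share of nuclei (percent) of 1 mouse in 1 cluster, by strain, with the mean and SD of the 4 mice of a strain. CAST/EiJ has the lowest mean share of macrophages, 3.11% ± 0.645, and 1 CAST/EiJ mouse has 2.44% astrocytes.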

How the data were processed

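The authors deposited gene-by-barcode matrices of raw UMI counts, made with Cell Ranger ARC 2.0.0 and bcl2fastq 2.20.0.422 on builds mm10 and GRCm38, per the submitters' processing notes. The annotation release and the strand used in counting are not given in the sources used here. Strain, quality, doublet and cluster calls are categories in the authors' deposited table (unit other). The strain and cluster calls were used unchanged, and nuclei without a cluster name, doublets among them, were left out. The quality, doublet, droplet type and removal columns were not applied separately. The deposited peak index gives positions on the same build, called over all batches.

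Counts were summed per mouse and cluster (libraries of 4 CAST/EiJ and 28 other mice in each of 5 clusters). Genes passing filterByExpr by strain were fitted in edgeR 4.0.16 (R 4.3.3; robust quasi-likelihood, TMM, strain and batch), CAST/EiJ was contrasted with the equally weighted mean of the other 7 strains, with Benjamini-Hochberg adjustment of p-values over all genes tested in a cluster. Calls needed an adjusted p under 0.05. CPM are counts per 1000000 of the TMM-scaled total, or of the plain total for cell type marker levels. Differences between clusters were tested over 64 libraries with the mouse as a block. Shares and medians were tested by exact permutation within batch (4096 arrangements, scipy 1.17.1, numpy 2.4.6).

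The batch pairs the mice, since the labels say that it is a shared pool. As a check, the deviation of the CAST/EiJ mouse from its group mean correlated with that of its pool at 0.41, 0.44, 0.46 and 0.25 in batches 1 to 4, across 9050 genes.

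Named genes had at least 10 CPM on the higher side and all 4 CAST/EiJ mice outside the other 28, and were the 10 (Drd1+ neurons) or 6 (other clusters) with the largest change each way. Added to these were 10 genes called in all 5 clusters, the 5 differences per cluster pair with the largest F, and up to 4 members per list and cluster. The members, the 15 gene lists and the 13 marker lists were chosen with earlier results of these data known. A few named genes are not reported here. The fits were tested on simulated data. Intervals and floors (3 counts) cover counting error only. Alternatives were DESeq2 1.42.0, RLE scaling, no filter, thinned counts, a fold change minimum, no batch term, leaving out PWK/PhJ or 1 batch and, chosen after seeing the data, leaving out the CAST/EiJ mouse of batch 3.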

Additional observations from a re-analysis of the deposited data

Results flagged for a closer look

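The CAST/EiJ effect differed between cell types for the 20 comparisons of named genes that follow, each past the threshold of the interaction test (edgeR, mouse as block), with all values on the log2 scale as the second cluster minus Drd1+ neurons. In Drd2+ neurons the differences were 1.10 for Tll1, 0.82 for Prkd1, 0.73 for Wipf3, 0.39 for Gabrg3 and -0.46 for Tenm3. In oligodendrocytes they were 3.12 for Cntn4, 3.08 for Myo3a, 2.90 for Prkd1, -3.42 for Adgrv1 and -5.09 for Spock1. Astrocytes gave 6.14 for Cntn4, 4.33 for Synpo2, 3.60 for Plce1, 3.05 for Rit2 and -4.71 for Adgrv1. Macrophages gave 5.64 for Abi3bp, 3.55 for Dgki, 2.92 for Nhs, -4.77 for Klf12 and -7.17 for Rubcnl.

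Of 287 sets of 4 CAST/EiJ values, 18 had 1 mouse far from the other 3, with a gap, as a share of the range, past the critical value of Dixon's test. Chance flags about 1 in 20 such sets. For Slpi, Gm13031, Gm10790 and Abcd2 this follows from 1 or 2 counts in 1 mouse and 0 in the other 3, so that rate does not apply to them and no mouse stands apart. Their only counts were in batch 1 for Slpi in oligodendrocytes (3.32 CPM) and Gm10790 in macrophages (11.9 CPM), in batch 2 for Abcd2 in macrophages (15.6 CPM) and in batch 4 for Gm13031 in astrocytes (3.20 CPM). Batch 1 stood apart in oligodendrocytes for Prkacb (292 CPM) and Grik4 (6.65 CPM), and in macrophages for Olfml3 (628 CPM) and Cadm1 (415 CPM). Batch 2 stood apart for Tgfbr2 in oligodendrocytes (73.7 CPM), and for Cntn4 (1084 CPM) and Slc1a3 (2584 CPM) in astrocytes. In batch 3 these were Kcnip2 (404 CPM) and Enpp2 (16.7 CPM) in Drd2+ neurons, and Kcnj3 in astrocytes (47.3 CPM). The median of 1326.5 UMIs per oligodendrocyte nucleus of batch 3 was also apart from the others. Batch 4 stood apart for Glo1 in Drd1+ neurons (27.8 CPM), Sfi1 in Drd2+ neurons (101 CPM) and Cradd in oligodendrocytes (65.4 CPM).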

How the results depend on the processing

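Of 3045 values of named genes under the alternatives, 2866 kept their direction and call, 179 kept their direction without the call and 0 reversed. Genes not tested under an alternative were left uncounted, most of them with thinned libraries, where 194 kept the call and 35 lost it. The fold change minimum was not applied to these genes, which were picked for large changes or small p-values. Of 1800 list counts 303 and of 45 medians over the strain pairs 6 moved by over 1.5 times, and of 140 named cluster differences 2 lost the call. With an absolute log2 fold change of 1 also required, 923, 776, 486, 297 and 207 genes were called in Drd1+ neurons, Drd2+ neurons, oligodendrocytes, astrocytes and macrophages, and 22, 637 and 448 differences for Drd2+ neurons, oligodendrocytes and astrocytes. Libraries thinned to 1 total gave 638, 56 and 114 calls in the 3 glial clusters, of only 4602, 1033 and 773 genes tested. Leaving out 1 batch, or the CAST/EiJ mouse of batch 3, gave 3385 to 3794, 2686 to 3029, 1140 to 1454, 391 to 858 and 247 to 359 calls in the 5 clusters. Without 1 batch the cluster differences were 92 to 109, 836 to 1107, 417 to 694 and 203 to 309.

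With no replicate block, the Drd2+ and Drd1+ neuron difference had 21 calls, since the mouse is then no term, and calls within the 5 clusters were 3721, 2982, 1294, 670 and 316; no other count over all genes moved by over 1.5 times, and 11 list counts did. DESeq2 called 4069, 3237, 1384, 664 and 317 genes. For shares, the Drd2+ neuron difference reversed among neurons (-0.0779) and without batch 3 (leave-one-out range -0.0229 to 0.0579). The astrocyte difference reversed in percent points (0.57), among non-neurons (0.17) and without batch 3 (range -0.34 to 0.29), and that of macrophages lost its call among non-neurons (-0.40). Median UMIs of macrophages reversed without batch 4 (range -0.0025 to 0.030), and counting detected genes in place of UMIs made -0.0717, -0.0839 and -0.13 calls in Drd1+ neurons, Drd2+ neurons and astrocytes. The cause of these changes was not tested. Depth was lowest in astrocytes and macrophages, with 23 and 24 nuclei in the CAST/EiJ mouse of batch 3, without which 800 and 348 genes were called.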

Other observations

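Long noncoding RNA genes were called in CAST/EiJ in a larger share of those tested than protein-coding genes in all 5 clusters. The shares were 41.9% and 32.0% in Drd1+ neurons, 38.5% and 27.2% in Drd2+ neurons, 30.0% and 16.4% in oligodendrocytes, 19.9% and 9.11% in astrocytes and 23.6% and 9.28% in macrophages. The difference between the 2 biotypes was not tested.

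Some genes of the immune lists were called in CAST/EiJ neurons, at low levels. Of the antigen presentation and interferon list, 4 of 14 tested genes rose and 1 fell in Drd1+ neurons (35.7%, near the 32.8% of all genes), and in Drd2+ neurons none of 12 rose and 1 fell (8.33%, beside 28.1%). Stat2, a transcription factor of the interferon response, rose from 16.2 ± 2.48 to 24.0 ± 1.77 CPM in Drd1+ neurons (SD, n = 28 and 4), and Nlrc5, an activator of class I genes, rose there from 1.29 ± 1.16 to 3.72 ± 1.60 CPM. Of the microglial list, 6 of 21 tested genes rose and 4 fell in Drd1+ neurons (47.6%, beside 32.8%), and 4 of 19 rose and 1 fell in Drd2+ neurons (26.3%, beside 28.1%). Selplg, the P-selectin ligand gene, was at 20.1, 12.9, 18.4 and 12.3 CPM in CAST/EiJ Drd1+ neurons against 1.00 to 15.2 CPM (median 2.12), and at 20.1, 14.5, 15.9 and 11.9 CPM against 0.495 to 12.1 CPM (median 1.90) in Drd2+ neurons. Its log2 fold changes were 2.50 (SE 0.20) and 2.85 (SE 0.22), with overlap in both. The 6 macrophage markers summed to 79.8 to 99.2 CPM in CAST/EiJ Drd1+ neurons against 56.0 to 99.2 CPM in the others. In Drd2+ neurons they summed to 80.5 to 98.5 CPM (median 83.7) against 45.8 to 86.9 CPM (median 70.7), and their part in these values was not tested. Of the glutathione list in oligodendrocytes, 4 of 26 rose and 2 fell (23.1%, beside 17.0% of all genes), among them Cyp2j12, an epoxygenase gene, from 237 ± 95.6 to 529 ± 71.6 CPM.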
